A study of Mus musculus with 2 samples.

Results

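The clustered protocadherins are cell-surface cadherins whose genes lie in tandem arrays, the alpha, beta and gamma clusters, on mouse chromosome 18. Members were the genes on that chromosome whose GENCODE symbol starts with Pcdha, Pcdhb, Pcdhga, Pcdhgb or Pcdhgc, with no threshold on any measured value. This gave 58 members among 43346 measured genes: 14 in the alpha cluster, 22 in the beta cluster and 22 in the gamma cluster. On build mm10 the alpha cluster spans positions 36930184 to 37187661, the beta cluster 37264938 to 37524479 and the gamma cluster 37661793 to 37841873.

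Each cluster codes for proteins with cadherin repeats outside the cell, a membrane span and a tail inside it. In the alpha and gamma clusters every variable first exon has its own promoter and is spliced to a common set of constant exons that code for the shared end of the tail. Beta genes have a single coding exon and no constant exons. Single neurons choose a few alternate promoters at random, with CTCF and cohesin bridging promoters and distant enhancers, while the C-type members (Pcdhac1, Pcdhac2, Pcdhgc3, Pcdhgc4 and Pcdhgc5) are chosen in a less random way. The resulting proteins bind like combinations on other membranes, and in mice they are known for self-avoidance of branches of the same neuron, for dendrite growth and for neuronal survival.

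Total RNA was measured in the forebrains of 2 newborn mice of strain B6NCrl at postnatal day 0, pup 1 (replicate 1) and pup 3 (replicate 2), with a single forebrain in each library. Both belong to 1 group without a treatment, an allele or a second tissue, so no contrast between conditions exists and no test was made. The sex was not collected, and both pups carry the same donor identifier in the labels, so the spread between them may be partly technical. Levels are given as TPM, an abundance set per transcript length and per library that allows comparison between genes, as mean ± SD with n = 2 where the values of both pups do not stand beside each other.

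The libraries of pup 1 and pup 3 held 40066386 and 40431595 expected counts in all, of which 54532 and 48541 belonged to members. Defining markers matched the labelled tissue: each pup had at least 1 TPM of all 6 forebrain identity genes (summed TPM 138 in pup 1 and 131 in pup 3), and none of 6 midbrain and hindbrain genes did (1.08 and 1.04). Of other cell types, 5 of 5 neuronal markers reached 1 TPM in both pups (summed TPM 2462 in pup 1 and 2113 in pup 3), 4 of 4 astrocyte markers (284 and 203), 3 of 4 of the oligodendrocyte lineage (43.1 and 30.7) and 3 of 4 of the choroid plexus (1389 and 1084). Both endothelial markers (118 and 124) and both microglial markers (73.9 and 77.9) reached it as well. Of 3 olfactory sensory neuron markers, Adcy3 alone reached it (summed TPM 9.19 and 6.13), with Omp at 0.28 and 0.31 TPM and Cnga2 at 0.05 TPM in both pups. Of 3 serotonergic markers (summed TPM 3.47 and 2.44), Slc6a4 alone reached it, at 2.56 and 1.79 TPM. Tph2 had 0.91 and 0.65 TPM, and Fev was listed at 0 in both pups. Libraries of whole forebrain mix these cells, and a lower level from fewer cells of a type and from less RNA per cell cannot be told apart.

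Nearly the whole family was transcribed in newborn forebrain. A member counted as detected when neither pup fell below 1 TPM, which held for 52 of 58 members, or 89.7%, beside 60.7% of protein-coding genes and 33.2% of all genes. By class, all 12 gamma A members, all 5 C-type members, 11 of 12 alternate alpha members, 6 of 7 gamma B members and 18 of 22 beta members were detected. The 6 members below the threshold were Pcdha8, Pcdhb1, Pcdhb2, Pcdhb14, Pcdhb18 and Pcdhgb8, which is annotated as a polymorphic pseudogene. Of these, Pcdhb14 stood just below it, at 1.10 TPM in pup 1 and 0.81 TPM in pup 3, and Pcdhb18 at 0.98 and 0.84 TPM. Just above it stood Pcdhb15, at 1.34 TPM in pup 1 and 1.25 TPM in pup 3, Pcdhb13, at 1.21 and 1.48 TPM, and Pcdhb10, at 1.90 and 1.16 TPM.

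Most members taken alone were below the typical level of a detected protein-coding gene. The median of the mean TPM over all 58 members was 4.55, and over the 52 detected members it was 5.06, beside 17.0 over detected protein-coding genes. Only Pcdhgc4 and Pcdhgc3 lay above that median. The class medians were 15.7 TPM for C-type members, 8.83 for alternate alpha, 6.32 for gamma A, 3.77 for gamma B and 2.06 for beta. In each class the median was higher in pup 1. The C-type median was 18.02 TPM in pup 1 and 13.45 TPM in pup 3, that of alternate alpha 9.86 and 7.86, that of gamma A 6.91 and 5.73, that of gamma B 4.24 and 3.44, and that of beta 2.23 and 1.77. The order of the classes was the same in both pups.

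**Figure D1:**
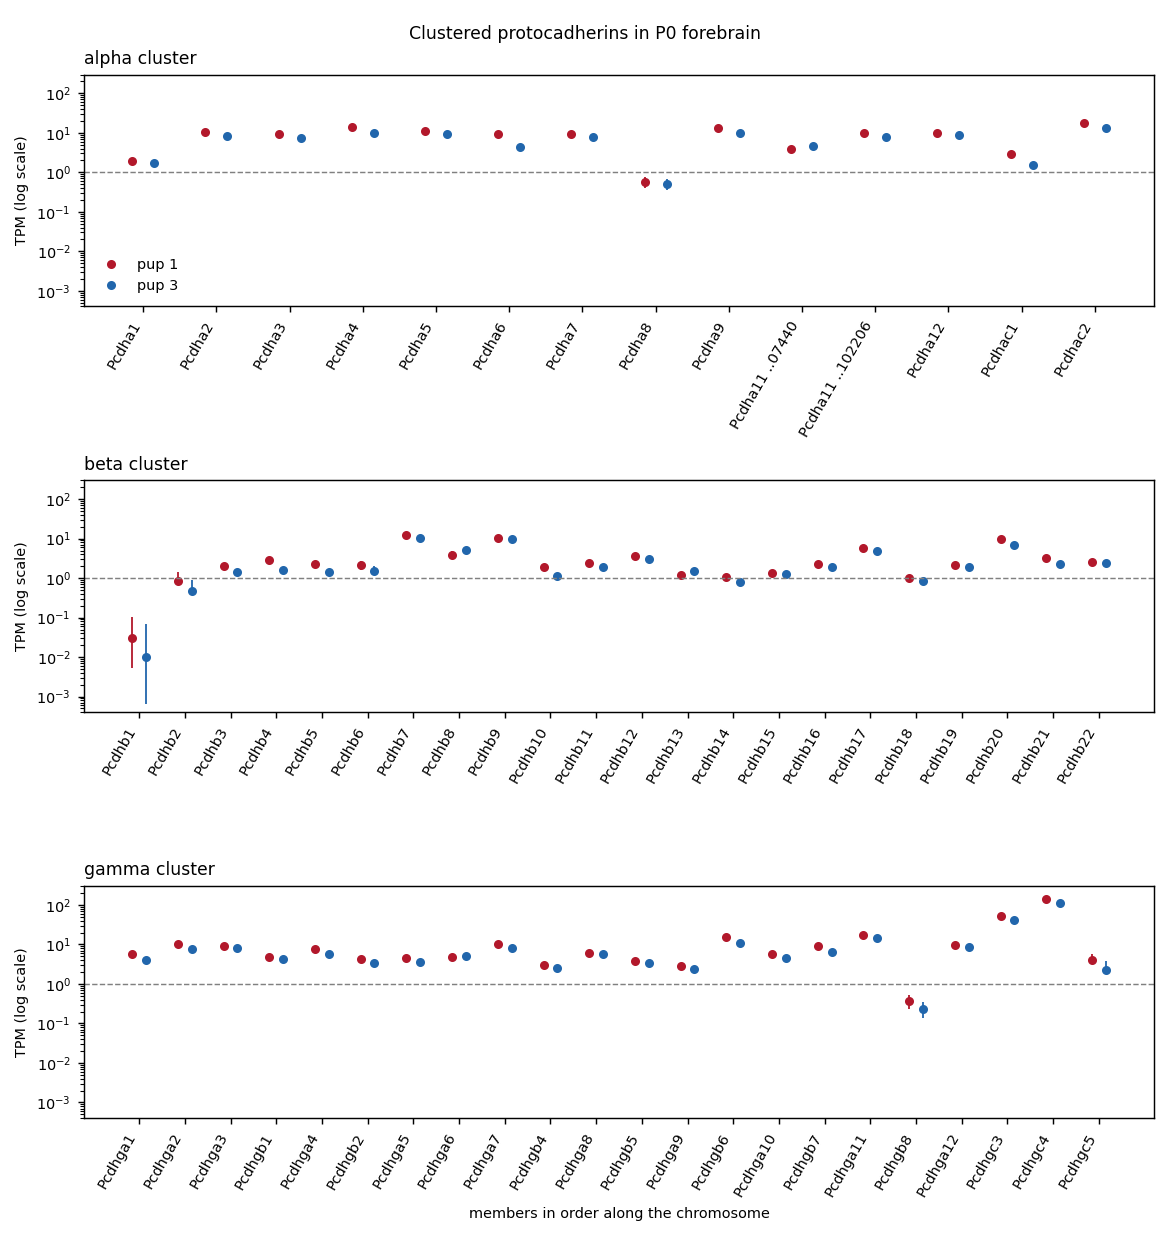
TPM (log scale) of the 58 members in their order along the chromosome, with points for pup 1 and pup 3, vertical lines for the deposited intervals and a dashed line at 1 TPM. Most points of both pups lie between 1 and 20 TPM, Pcdhgc3 and Pcdhgc4 at the right end of the gamma cluster stand above all others, and Pcdhb1 at the left end of the beta cluster is lowest. The 2 alpha identifiers that share the symbol Pcdha11 are marked by the last digits of the identifier.

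Summed over members, the gamma cluster held most of the family's transcripts. Its sum was 333 TPM in pup 1 and 266 TPM in pup 3, against 124 and 94.9 TPM for the alpha cluster and 74.8 and 62.8 TPM for the beta cluster. As shares of the members' summed TPM, gamma held 62.7% ± 0.208, alpha 22.9% ± 0.727 and beta 14.4% ± 0.519 (SD, n = 2 each). The shares differed between the clusters by far more than between the pups. Of expected counts, which are not divided by length, gamma held 58.4%, alpha 28.8% and beta 12.8%. Counting only 1 full-length coding transcript for each member, a choice made after the data were seen, gave gamma 53.1%, alpha 28.4% and beta 18.5%, with a gamma sum of 188 TPM, and the order was kept.

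The 5 C-type members were unequal, and those of the gamma cluster accounted for 59.0% ± 0.289 of the gamma cluster's TPM, or 35.5% ± 2.38 when only full-length coding transcripts were counted (SD, n = 2). Pcdhgc4 (ENSMUSG00000023036, positions 37815079 to 37841873), which in mice is known to be needed for survival of neurons after birth, had 140.2 TPM in pup 1 and 113 TPM in pup 3, the highest of all members. Pcdhgc3 (ENSMUSG00000102918, positions 37806364 to 37841873), known for promoting dendrite branching of cortical neurons through its tail and Axin1, had 52.8 TPM in pup 1 and 41.9 TPM in pup 3. Pcdhgc5 (ENSMUSG00000102543, positions 37819513 to 37841873), whose protein is known to bind GABA-A receptor subunits, had 3.98 TPM in pup 1 and 2.25 TPM in pup 3. The deposited gene-level intervals of these 3 genes did not overlap each other in either pup. Their order at the gene level was the same in both pups, while between full-length coding transcripts Pcdhgc3 stood above Pcdhgc4.

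The alpha C-type members made up 16.3% ± 0.697 of the alpha cluster (SD, n = 2). Pcdhac2 (ENSMUSG00000102697, positions 37143503 to 37187657), known in mice for the spacing of serotonergic axons, had 18.02 TPM in pup 1 and 13.45 TPM in pup 3, the highest of the alpha cluster. Pcdhac1 (ENSMUSG00000103255, positions 37090013 to 37187657) had 2.84 TPM in pup 1 and 1.52 TPM in pup 3, so Pcdhac2 over Pcdhac1 was 6.16-fold and 8.36-fold. Pcdhac2 and the highest gamma A member, Pcdhga11, could not be ranked. Their ratio was 1.04 in pup 1 and 0.927 in pup 3, with a mean of -0.02 ± 0.12 on the log2 scale (SD, n = 2).

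At the level of single transcripts the lead of Pcdhgc4 came from an annotated transcript that is mostly constant exon. Pcdhgc4-203, a coding transcript of 2272 nt, holds 2119 nt of the constant exons and 153 nt outside them. It had 89.8 TPM in pup 1 and 79.5 TPM in pup 3, or 64.1% and 70.6% of the gene's TPM. The full-length coding transcript Pcdhgc4-201 of 5024 nt, which carries the large variable exon, had 30.0 TPM in pup 1 and 19.5 TPM in pup 3. The retained-intron transcript Pcdhgc4-202, which holds none of the constant exons, had 20.4 TPM in pup 1 and 13.6 TPM in pup 3.

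For Pcdhgc3 the full-length coding transcript, Pcdhgc3-201, led instead, with 46.4 TPM in pup 1 and 34.1 TPM in pup 3, or 87.8% and 81.6% of its gene. Pcdhgc3-202, annotated as a target of nonsense-mediated decay, had 5.81 TPM in pup 1 and 7.53 TPM in pup 3. The order of the 2 genes therefore depended on what was counted. At the gene level Pcdhgc4 over Pcdhgc3 was 1.41 on the log2 scale in pup 1 and 1.43 in pup 3, and between full-length coding transcripts it was -0.63 and -0.80. All but 153 nt of Pcdhgc4-203 are shared with other gamma members, and whether it exists as a molecule of its own was not tested.

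**Figure D2:**
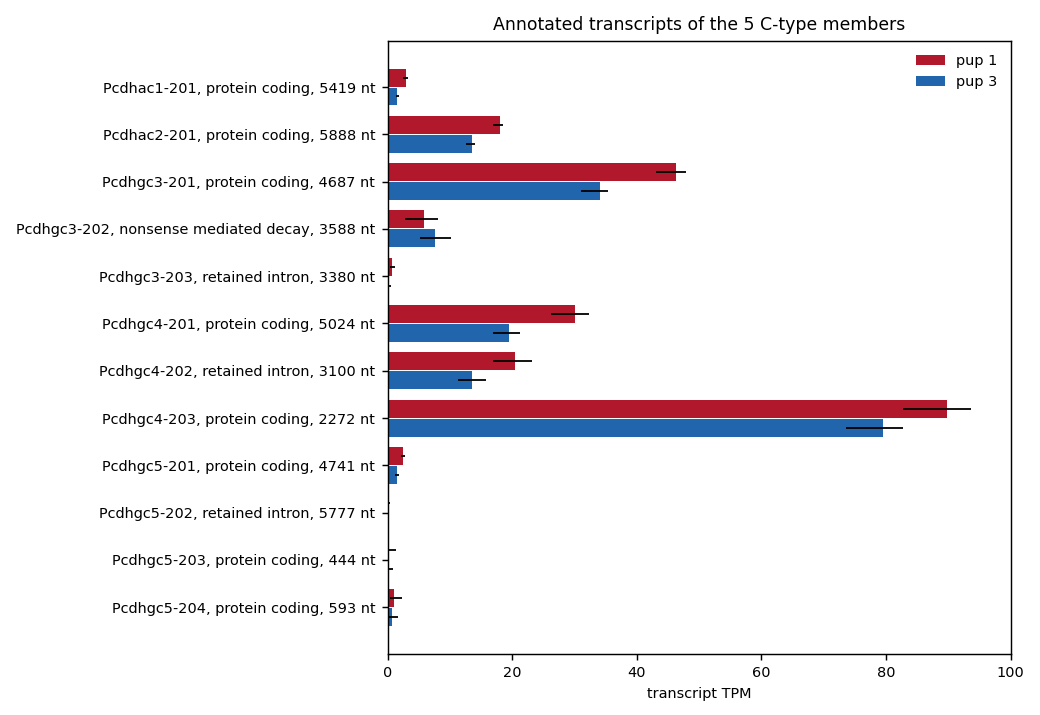
TPM of every annotated transcript of the 5 C-type members, with a bar for pup 1 above a bar for pup 3 and black lines for the deposited intervals. Pcdhgc4-203 has the longest bars, 89.8 TPM in pup 1 and 79.5 TPM in pup 3, while among full-length coding transcripts those of Pcdhgc3-201 are longer than those of Pcdhgc4-201.

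The TPM of Pcdhgc5 was assigned to full-length and short transcripts. Pcdhgc5-201 had 2.46 TPM in pup 1 and 1.52 TPM in pup 3. The short coding transcript Pcdhgc5-204 of 593 nt had 1.04 and 0.62 TPM, or 26.0% and 27.3% of the gene. That share rested on expected counts of only 12.7 in pup 1 and 8.56 in pup 3, and 446 nt of the transcript are constant exon. Between full-length coding transcripts Pcdhgc4 over Pcdhgc5 was 11.8-fold in pup 1 and 12.1-fold in pup 3, and Pcdhgc3 over Pcdhgc5 was 18.1-fold and 21.1-fold. Pcdhgc5 thus stayed the lowest of the gamma C-type members on both scales. Pcdhac1 and Pcdhac2 each have a single annotated transcript.

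Across the family, 21 of 58 members have more than 1 annotated transcript, and in 18 of them the full-length coding transcript held 50% or more of the gene's TPM in both pups. The exceptions, named after their values were seen, were Pcdhgc4, Pcdha4 and Pcdhb22. In Pcdha4 the coding transcript Pcdha4-201, which holds 2432 nt of the constant exons beside 2860 nt in the full-length transcript, had 6.93 TPM in pup 1 and 5.92 TPM in pup 3, beside 6.50 and 3.95 TPM for the full-length Pcdha4-202. In Pcdhb22 the shorter coding transcript Pcdhb22-201 had 1.49 and 1.88 TPM, beside 1.05 and 0.58 TPM for Pcdhb22-202. Of 10 retained-intron transcripts of members, Pcdhgc4-202 alone reached 1 TPM in both pups. Neither this count nor the 18 of 21 members above is set beside a share over all genes.

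The alternate alpha members were nearly even apart from a few low ones. The 3 highest were Pcdha4 with 13.8 TPM in pup 1 and 10.1 TPM in pup 3, Pcdha9 with 12.9 and 9.72 TPM, and Pcdha5 with 11.3 and 9.37 TPM. Pcdha4 led only at the gene level, since its full-length transcript had 6.50 and 3.95 TPM, below those of Pcdha9 and Pcdha5, which have a single transcript each. The lowest, Pcdha8, had 0.58 TPM in pup 1 and 0.51 TPM in pup 3. Alternate alpha proteins are known to need a partner among certain members of the other classes to reach the cell surface. The effective number of members, which is the inverse of the summed squared shares and equals the number of members when all are equal, was 9.87 in pup 1 and 9.94 in pup 3 for the 12 alternate alpha members.

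Of the other 8 alternate alpha members, 6 lay between 6.73 and 9.43 mean TPM, namely Pcdha6, Pcdha3, Pcdha7, Pcdha2, Pcdha12 and the Pcdha11 entry ENSMUSG00000102206. Pcdha1 had 1.96 TPM in pup 1 and 1.73 TPM in pup 3. The symbol Pcdha11 stands for 2 identifiers in the annotation, of which ENSMUSG00000102206 had 10.1 TPM in pup 1 and 8.08 TPM in pup 3, and ENSMUSG00000007440 had 4.00 and 4.53 TPM. ENSMUSG00000007440 starts at position 37005203, and on the same build RefSeq places Pcdha10 there, with its start at 37005320, and Pcdha11 at 37010858.

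The beta cluster combined the lowest class median with a few members as high as those of the other clusters. Its 3 highest members were Pcdhb7 with 12.3 TPM in pup 1 and 10.6 TPM in pup 3, Pcdhb9 with 10.3 and 9.70 TPM, and Pcdhb20 with 9.70 and 6.78 TPM. Pcdhb17 and Pcdhb8 followed at 5.32 ± 0.721 and 4.58 ± 0.962 TPM (SD, n = 2), and the other 17 had mean TPM of 3.31 or less. The lowest of all 58 members was Pcdhb1, the first gene of the cluster, which rested on an expected count of 2 in pup 1 and 1 in pup 3, at 0.03 and 0.01 TPM. The Pcdhb1 promoter is known to lack the conserved element that most promoters of the clusters carry, a property it shares with Pcdhac2, Pcdhgc4 and Pcdhgc5, so members without it stood at both ends of the range. The effective number for the 22 beta members was 11.7 in pup 1 and 11.2 in pup 3.

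All gamma A members were detected, with mean TPM from 2.64 to 15.9. Pcdhga11 led with 17.3 TPM in pup 1 and 14.5 TPM in pup 3. Next by mean TPM were Pcdhga7 with 10.2 and 8.12 TPM and Pcdhga12 with 9.78 and 8.46 TPM. The lowest, Pcdhga9, had 2.92 TPM in pup 1 and 2.36 TPM in pup 3. Pcdhga7 and Pcdhga12 did not differ beyond their spread, nor did Pcdhga2 and Pcdhga3, whose means were 9.09 ± 1.79 and 8.72 ± 0.516 TPM (SD, n = 2 each). The order of these members was not the same in both pups. In pup 1 Pcdhga2, at 10.35 TPM, stood above Pcdhga7 and Pcdhga12, and in pup 3 Pcdhga3, at 8.35 TPM, stood above Pcdhga7.

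Among gamma B members Pcdhgb6 was highest in both pups. It had 15.8 TPM in pup 1 and 11.1 TPM in pup 3, beside 9.07 and 6.37 TPM for Pcdhgb7 and 4.81 and 4.22 TPM for Pcdhgb1. Pcdhgb2, Pcdhgb5 and Pcdhgb4 lay between 2.82 and 3.77 mean TPM. The lowest, the polymorphic pseudogene Pcdhgb8, had 0.37 TPM in pup 1 and 0.23 TPM in pup 3. The effective number was 4.27 in pup 1 and 4.62 in pup 3 for 7 gamma B members, and 9.86 and 9.81 for 12 gamma A members. For the whole gamma cluster it was 4.66 and 4.65 for 22 members, with Pcdhgc4 alone holding 42.2% of the cluster's TPM in pup 1 and 42.3% in pup 3. On full-length coding transcripts Pcdhgc4 held 14.2% in pup 1 and 12.0% in pup 3, and the effective number of the gamma cluster was 10.4 and 11.2.

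Within the classes of tandem genes, Spearman's rho of mean TPM with order along the cluster was 0.08 across the 12 alternate alpha members, 0.27 across 22 beta members, 0.25 across 12 gamma A members and -0.11 across 7 gamma B members, as a description across genes that share libraries and exons. Of the members below 1 TPM, Pcdha8 lies between Pcdha7 and Pcdha9 and Pcdhgb8 between Pcdhga11 and Pcdhga12, all of them detected, while Pcdhb1 and Pcdhb2 lie side by side.

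The constant exons limit how well alpha and gamma members can be told apart. Bases in the exons of 10 or more members amounted to 2860 nt in the alpha cluster and 2119 nt in the gamma cluster, and none in the beta cluster, where Pcdhb21 and Pcdhb22 share 455 nt. Stretches of 100 bases were counted along the full-length transcript of each member only. The median share found in no other gene on the same strand was 44.2% for alternate alpha, 56.0% for gamma A and 53.9% for gamma B. It was 55.9% for C-type and 99.8% for beta members. Pcdha4 was lowest at 3.51%, and its variable exon overlaps Gm42416, an annotated readthrough gene that joins it to gamma constant exons and had 0 TPM in pup 1 and 0.28 TPM in pup 3. The other 2 readthrough genes, Gm37013 from Pcdha6 and Gm37388 from Pcdha7, were listed at 0 in both pups. The stretch length follows the deposited tables, in which length minus effective length was 99 nt in all 88 transcripts of members.

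The deposited intervals were narrow for members with many counts. Interval width over posterior mean TPM had a median of 0.0947 in pup 1 and 0.104 in pup 3 for C-type members, 0.151 and 0.183 for alternate alpha, 0.192 and 0.187 for gamma A, 0.236 and 0.241 for gamma B, and 0.268 and 0.307 for beta, beside 0.224 and 0.224 for all genes. Across the 58 members the mean width fell with the mean expected count at a Spearman's rho of -0.91, a description across genes of the same libraries. At nearly equal counts, in a pair chosen after its values were seen, the width was smaller in a beta than in a gamma A member. Pcdhga3, with expected counts of 1044 in pup 1 and 1086 in pup 3, had widths of 0.153 and 0.151, and Pcdhb7, with 1040 and 1017, had 0.122 and 0.122.

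Some members, named after their values were seen, had wide intervals for their counts. Pcdhgc5 had widths of 0.562 in pup 1 and 0.715 in pup 3 on expected counts of 331 and 226, where Pcdhb21 had 0.205 and 0.230 on 366 and 290. The Pcdha11 entry ENSMUSG00000102206 had widths of 0.336 and 0.282 on 993 and 1056, and Pcdhb8 had 0.449 and 0.378 on 238 and 325. These 3 are among the 6 members with an annotated transcript under 1000 nt, with Pcdhb2, Pcdhb6 and Pcdhga4. Pcdhb6 was wide too, at 0.489 and 0.488 on 147 and 140, beside Pcdhb10 at 0.343 and 0.411 on 130 and 90. Pcdhga4, at 0.206 and 0.210 on 870 and 735, was near Pcdhga8, at 0.187 and 0.185 on 721 and 758. Pcdhb2, at 0.743 and 0.860 on 56 and 37, was near Pcdhgb8, at 0.774 and 0.908 on 41 and 30. Pcdhb22, whose shortest transcript has 2266 nt, had 0.343 and 0.325 on 250 and 220, beside 0.247 and 0.253 on 253 and 235 for Pcdhb11. Pcdha4, with widths of 0.210 in pup 1 and 0.215 in pup 3 on expected counts of 1572 and 1275, was also wide beside Pcdha9, with 0.127 and 0.137 on 1687 and 1434, and its shortest annotated transcript has 2894 nt. The part of transcript length in the widths was not tested.

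**Figure D3:**
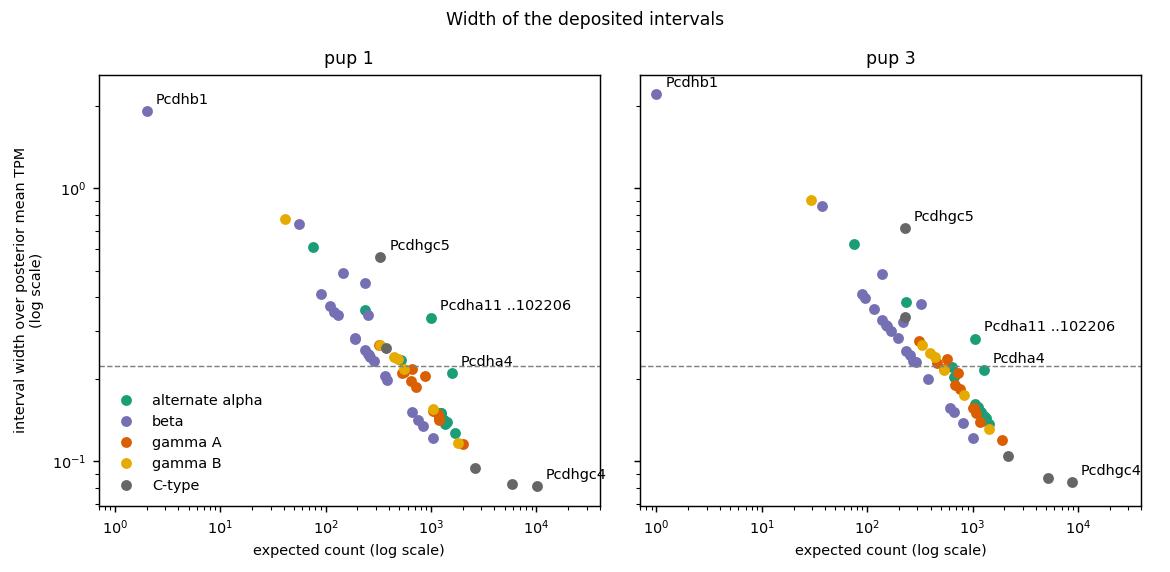
Width of the deposited interval over the posterior mean TPM against expected count for the 58 members (both log scales), in pup 1 at the left and pup 3 at the right, coloured by class, with a dashed line at the median of all genes (0.224). Widths fall with the count, and Pcdhgc5, the Pcdha11 entry ENSMUSG00000102206 and Pcdha4 lie above the other members of a like count.

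The pups gave nearly the same profile of members. Spearman's rho between the pups was 0.98 across 58 members, as a description across genes, and 9 of the 10 highest members were the same. In TPM 48 of 52 members with a mean of 1 or more were higher in pup 1, or 92.3%, beside 80.4% of all 14985 such genes. All such genes had a median log2 ratio of pup 1 over pup 3 of 0.27, computed from TPM + 0.1, so that changes of low genes come out too small. Relative to that shift 30 of 52 members were higher and 22 lower in pup 1, with a median of 0.05. The median absolute deviation of the ratios was 0.12 for these members, beside 0.22 for all genes.

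A member was taken to differ where its mean TPM reached 1, its TPM + 0.1 stood at least 2-fold apart and its deposited intervals were disjoint. Pcdha6 alone met this, with 9.17 TPM in pup 1 and 4.28 TPM in pup 3, a ratio of 2.12. Over all genes the rule was met by 3.97%, and by 3.84% with pup 1 higher, so 1 of 52 members is no more than the background share. No member met it with pup 3 higher, beside only 0.127% of all genes that did, so the absence of such a member sets the family apart from no other genes. Relative to the shift of all genes Pcdha6 stood at 0.81 on the log2 scale, and no member met the rule after that centring, where 1.43% of all genes met it with pup 1 higher and 0.207% with pup 3 higher. All of the TPM of Pcdha6 was assigned in both pups to its full-length transcript Pcdha6-202, whose intervals did not overlap between the pups.

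Within 1.5-fold after centring lay 49 of the 52 members, or 94.2%, beside 87.8% of all genes. The members outside were Pcdha6, Pcdhac1 at 0.59 and Pcdhb8 at -0.69 on the log2 scale. Pcdhb8 was higher in pup 3, with 3.90 TPM in pup 1 and 5.26 TPM in pup 3, and its intervals overlapped. Of the C-type members all 5 lay above the shift, by 0.05 to 0.59, the smallest being Pcdhgc4 and the largest Pcdhac1.

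**Figure D4:**
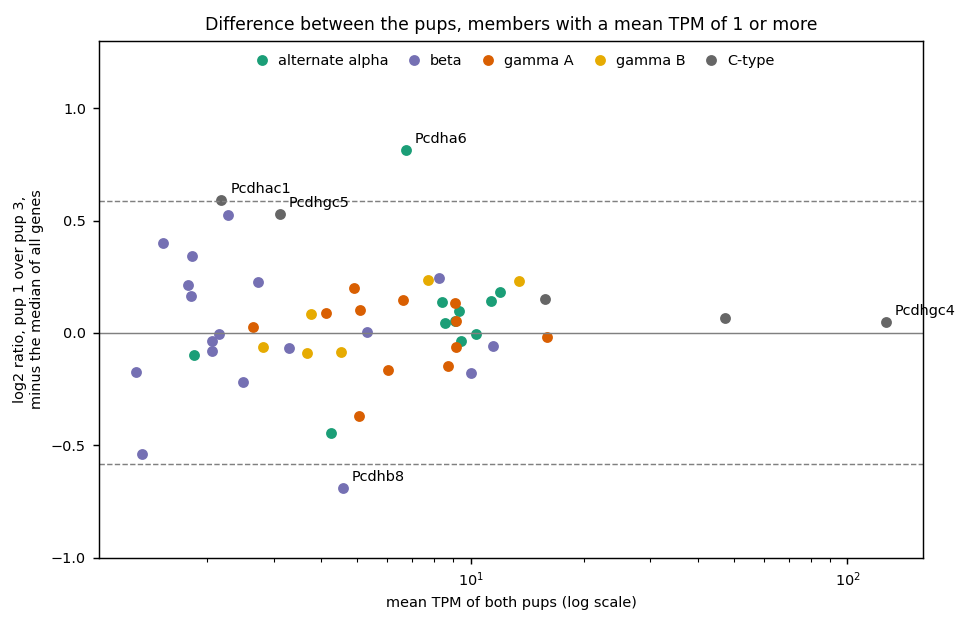
Log2 ratio of TPM + 0.1, pup 1 over pup 3, minus the median of all genes (0.27), against mean TPM (log scale) for the 52 members with a mean TPM of 1 or more, coloured by class. Dashed lines mark 1.5-fold, which Pcdha6, Pcdhac1 and Pcdhb8 exceed, and Pcdhgc4 lies near 0 at the right.

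Genes known to act on promoter choice in the clusters were all measured and all detected. The 19 genes of this list had a median of 20.2 TPM, beside 4.55 for the 58 members. The highest were Ctcf, the factor that binds most promoters and enhancers of the clusters, with 73.3 TPM in pup 1 and 55.4 TPM in pup 3, Dnmt3a, a DNA methyltransferase, with 76.2 and 40.8 TPM, and Smc1a, a cohesin subunit, with 50.7 and 45.3 TPM. The lowest was Dnmt3b, a methyltransferase that methylates cluster promoters in early mouse embryos, with 1.64 TPM in pup 1 and 1.07 TPM in pup 3. In all 19 genes TPM was higher in pup 1, as in 80.4% of all genes, and none met the rule for a difference, which 3.97% of all genes met.

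Genes for intracellular partners and for cleavage of the proteins were likewise all detected, 17 of 17, with a median of 55.9 TPM. The highest were Rac1, a GTPase of the actin cytoskeleton, with 334 TPM in pup 1 and 306 TPM in pup 3, Marcks, an actin regulator downstream of gamma protocadherins, with 212 and 193 TPM, and Wasf1, a subunit of the WAVE complex that binds alpha tails, with 171 and 152 TPM. The lowest was Ret, a receptor kinase that phosphorylates protocadherin tails, with 2.16 TPM in pup 1 and 1.17 TPM in pup 3. None of the 17 met the rule for a difference between the pups, which 3.97% of all genes met.

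The 12 protocadherins outside the clusters, each from a gene of its own, were all detected and reached a median of 12.8 TPM. The highest were Pcdh9 with 73.5 TPM in pup 1 and 47.2 TPM in pup 3, Pcdh8 with 44.7 and 34.7 TPM, and Pcdh11x with 27.0 and 14.8 TPM. The lowest was Pcdh12, known from endothelial cells, with 1.20 TPM in pup 1 and 1.26 TPM in pup 3. Pcdh17 alone of the 12 met the rule for a difference, with 22.1 TPM in pup 1 and 9.97 TPM in pup 3. Over all genes the rule was met by 3.97%, and by 3.84% with pup 1 higher. At the gene level Pcdhgc4 alone among the 58 clustered members exceeded Pcdh9 in both pups. No full-length coding transcript of a member reached the gene-level TPM of Pcdh9, whose single transcripts were not examined.

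**Figure D5:**
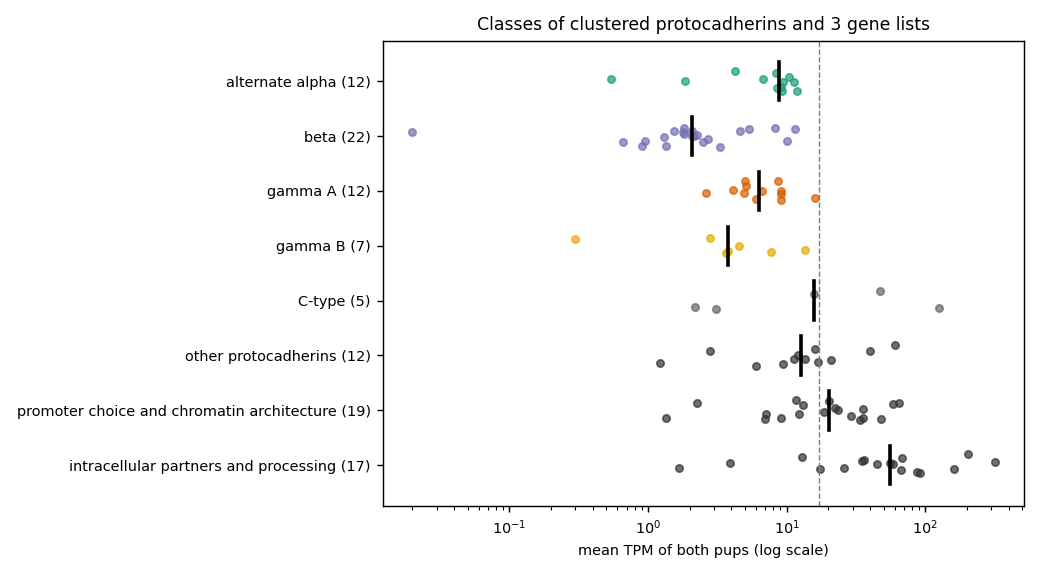
Mean TPM of both pups (log scale) of each gene in the 5 classes of clustered protocadherins and in 3 gene lists, with black bars for medians, the number of genes in brackets and a dashed line at 17.0 TPM, the median over protein-coding genes detected in both pups. Points are spread vertically at random for legibility. Pcdhgc3 and Pcdhgc4 are the clustered members to the right of the dashed line.

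Within the span of the clusters lie 27 annotated genes that are no members, of which 6 had a mean TPM of 1 or more. Taf7, a subunit of the general transcription factor TFIID between the beta and gamma clusters, had 15.9 TPM in pup 1 and 18.7 TPM in pup 3 and shares no exon base with a member. BC037039, antisense to Pcdhgc3, had 9.12 TPM in pup 1 and 8.56 TPM in pup 3, and 1559 nt of it lie in exons of Pcdhgc3. Gm26672, on the opposite strand to Pcdhga10, Pcdhgb7, Pcdhga11 and Pcdhga12, had 3.06 and 1.70 TPM and covers 5187 nt of member exons. Gm10544, with 852 nt opposite exons of the Pcdha11 entry ENSMUSG00000102206, had 1.71 and 1.61 TPM.

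On the members' own strand, Gm38182 had 1.12 TPM in pup 1 and 1.56 TPM in pup 3 and lies wholly in the gamma constant exons, while the lincRNA 3222401L13Rik had 1.31 and 0.90 TPM and shares no exon with members. No source used here states whether the libraries keep strand. Whether reads of a member and of an antisense gene in the same stretch can be told apart is therefore not known. Ignoring strand, the share of stretches found in no other gene fell to 25.1% for Pcdhgc3, 2.14% for Pcdhga10, 2.85% for the Pcdha11 entry ENSMUSG00000102206 and 37.7% for Pcdhb12. The Pcdhgc3 level rests on expected counts of 5845 in pup 1 and 5163 in pup 3, those of BC037039 on 478 and 507.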

How the data were processed

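Total RNA of 2 forebrains was sequenced from 10 ng of RNA over 200 nt, extracted with mirVana and with spike-ins added, per the labels. The authors' tables hold expected counts, TPM, posterior mean TPM and bounds of a credibility interval per gene and transcript, and the transcript's percent of its gene's TPM, per the file headers. No source used here gives the interval level, quantifier, aligner or strandedness. Expected counts divide shared reads, so members of a cluster depend on one another. The intervals surround the posterior mean TPM. The TPM lay inside in all 58 members in both pups. The build is mm10, per the labels.

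Symbols came from GENCODE M21 on the same build, without version, for 42462 of 43346 genes, and 884 had none. The family and the lists were chosen with earlier results of these data known. Detection asked for at least 1 TPM in each pup. Ratios were log2 of TPM + 0.1, pup 1 over pup 3. Constant bases lie in exons of 10 or more members of a cluster. The full-length transcript of a member is its coding transcript with the most exon bases found in no other annotated gene on the same strand. Ties went to the longest, and in alpha and gamma only transcripts with at least 1000 constant bases entered. For Pcdhgb8 its polymorphic pseudogene transcript was taken and counted with the coding ones. The named genes were the 5 C-type members, the 3 highest and the lowest of each other class, members differing between pups, the 3 highest and the lowest of each list, and genes of the locus with a mean of 1 TPM. Other genes named with values were chosen after their values were seen. The alternatives changed thresholds, folds, the pseudocount or filters, or used posterior mean TPM, counts, each pup alone, edgeR 4.0.16 TMM and DESeq2 1.42.0 scaling of rounded expected counts, and full-length transcripts. Scripts ran under R 4.3.3 and Python 3.11.15 with pandas 2.3.3, numpy 2.4.6, matplotlib 3.10.9 and scipy 1.17.1. Promoter and protein sequences of the members were not analysed here.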

Additional observations from a re-analysis of the deposited data

How the results depend on the processing

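Of 83 alternative values, 61 kept their result. A detection threshold of 5 TPM left 23 members. The share of all or of protein-coding genes at that threshold is not given here, so the lead over them at 1 TPM is not carried over. Counts scaled to library size (CPM), not divided by length, gave class medians of 29.1 for alternate alpha, 5.59 for beta, 19.2 for gamma A, 11.01 for gamma B and 59.5 for C-type, in the same order. Cluster shares by expected counts were 28.8% for alpha, 12.8% for beta and 58.4% for gamma. Full-length transcripts alone, chosen after the data were seen, gave 28.4%, 18.5% and 53.1%, a gamma sum of 188 TPM, 35.5% of it from C-type members and 13.1% from Pcdhgc4, an effective number of 10.8 in gamma, and Pcdhgc4 over Pcdhgc3 of -0.71 on the log2 scale in place of 1.42. The reversal follows from leaving out Pcdhgc4-203 and Pcdhgc4-202. The gamma B interval width was 0.228 among members with a posterior mean of 1 TPM or more. Members differing between pups numbered 5 at 1.5-fold, 0 at 3-fold, 0 after centring and 0 with a pseudocount of 1. After centring 1.43% of all genes met the rule with pup 1 higher and 0.207% with pup 3 higher. For the other settings no share of all genes is given here, so those counts cannot be set against a background. With each pup alone, detected members ranged from 52 to 53. No paired analysis was possible because the 2 pups form 1 group. With 2 animals the spread is itself poorly known, and the intervals cover the quantification within a library only.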
